A study of Homo sapiens with 12 samples.

Results

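The genes described here build and load major histocompatibility complex (MHC) class I molecules, and 9 of them were chosen by symbol: HLA-B, HLA-C, HLA-E, B2M, TAP1, TAP2, TAPBP, TAPBPL and ERAP1. All 9 had a row in both count tables, out of 58735 gene IDs at 24 h and 38318 at 48 h. KYSE150 cells, which were used throughout, derive from a squamous carcinoma of the oesophagus and were labelled wild type in every group. They were transfected with a small interfering RNA against ANLN (siANLN) or with siNC, a control siRNA. After 24 h or 48 h their polyadenylated RNA was sequenced, with 3 biological replicates in each of the 4 groups and 12 libraries in all. ANLN encodes anillin, an actin-binding scaffold of the contractile ring, and the series title places the study's interest in nuclear ANLN, RNA polymerase II clusters and the genes they serve. All 4 groups came from 1 cell line, so nothing below speaks of other lines or of tissue.

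MHC class I molecules show short peptides from inside the cell to CD8+ T cells and natural killer cells. The proteasome cuts proteins into peptides, the transporter formed by TAP1 and TAP2 carries them into the endoplasmic reticulum, and ERAP1 trims their amino end there. A heavy chain (HLA-B, HLA-C or HLA-E here) folds with the light chain, beta-2-microglobulin, encoded by B2M. Tapasin, encoded by TAPBP, bridges the heavy chain to the transporter and favours tightly bound peptides, while its relative TAPBPR, encoded by TAPBPL, edits peptides outside that complex. The genes are known to be induced by interferon, with IRF1 among the factors involved, and NLRC5 is the transactivator of class I promoters. Tumours are known to lower parts of this pathway.

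The class I heavy chain genes resemble each other closely, which bears on how reads are assigned to them. The stretch of 60 coding bases below, from the GENCODE 29 transcripts, lies at coding positions 104 to 163 in HLA-B and HLA-C and 95 to 154 in HLA-E, all on chromosome 6. Capitals mark the bases that differ from HLA-B.
HLA-B: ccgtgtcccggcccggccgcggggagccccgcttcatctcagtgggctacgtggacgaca
HLA-C: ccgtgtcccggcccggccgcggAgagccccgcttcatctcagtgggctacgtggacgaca
HLA-E: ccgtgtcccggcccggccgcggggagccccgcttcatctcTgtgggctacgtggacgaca
HLA-C and HLA-E each differed from HLA-B at 1 of these 60 bases. Of all windows of 50 bases in the transcript, 2.40% in HLA-B, 6.71% in HLA-C and 5.13% in HLA-E also occurred in another gene, but no window of 150 bases did in these 3 genes. TAP2 was the exception among the members, since 35.6% of its 50-base windows and 34.5% of its 150-base windows also occurred in another gene. AL669918.1, an annotated gene on the same strand, covers 2064 of the 6390 exon bases of TAP2 (32.3%). Reads of TAP2, HLA-B, HLA-C and HLA-E may thus have been split or dropped in the authors' counting, and their values are uncertain to that extent.

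Promoters of these genes are shown because the RNA of factors known to act through such motifs was measured, as described further on. Whether these factors bound the promoters in these cells was not tested. RefSeq sequences (GRCh38.p14) of 250 bases before to 50 bases after each start were searched on both strands for the core of the interferon-stimulated response element (ISRE, GAAANNGAAA), for the NF-kB motif, and for TGACG followed after 10 to 30 bases by ATTGG, a pair typical of the SXY module through which NLRC5 acts. The lines below give, 5′ to 3′ on the gene's own strand, the stretch that holds the matches, with the matches in capitals. TAP1, ERAP1 and TAPBPL each have 2 starts in the table. The lines show the upstream start of TAP1 and the downstream starts of ERAP1 and TAPBPL. The other starts of TAP1 and ERAP1 held none of these motifs. HLA-E has no promoter in the table and was not searched.
B2M, chr15:44711353-44711492, plus strand: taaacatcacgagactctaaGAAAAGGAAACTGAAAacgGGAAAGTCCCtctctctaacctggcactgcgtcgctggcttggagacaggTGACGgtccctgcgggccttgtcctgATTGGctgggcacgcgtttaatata
HLA-B, chr6:31357236-31357376, minus strand: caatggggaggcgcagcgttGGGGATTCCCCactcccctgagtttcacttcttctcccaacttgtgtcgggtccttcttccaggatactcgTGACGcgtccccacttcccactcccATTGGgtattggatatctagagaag
HLA-C, chr6:31272148-31272284, minus strand: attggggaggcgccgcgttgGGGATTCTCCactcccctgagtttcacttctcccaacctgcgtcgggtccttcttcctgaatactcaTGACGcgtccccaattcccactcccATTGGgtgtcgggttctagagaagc
TAP1, chr6:32853655-32853858, minus strand: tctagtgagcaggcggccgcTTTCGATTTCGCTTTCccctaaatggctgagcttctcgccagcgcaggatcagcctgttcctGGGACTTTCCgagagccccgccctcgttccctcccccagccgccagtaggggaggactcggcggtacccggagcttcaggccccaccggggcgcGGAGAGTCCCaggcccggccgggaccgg
TAP2, chr6:32838768-32838817, minus strand: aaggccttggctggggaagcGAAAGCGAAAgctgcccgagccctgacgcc
TAPBP, chr6:33314063-33314154, minus strand: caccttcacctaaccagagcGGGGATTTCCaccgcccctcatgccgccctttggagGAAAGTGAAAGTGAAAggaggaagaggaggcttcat
TAPBPL, chr12:6451957-6452006, plus strand: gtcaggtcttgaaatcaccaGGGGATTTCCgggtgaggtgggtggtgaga
ERAP1, chr5:96807914-96808038, minus strand: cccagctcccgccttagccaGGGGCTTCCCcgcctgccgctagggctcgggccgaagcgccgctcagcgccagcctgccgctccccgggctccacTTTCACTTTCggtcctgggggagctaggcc
The ISRE core was found in B2M, TAP1, TAP2, TAPBP and ERAP1, the TGACG and ATTGG pair in B2M, HLA-B and HLA-C, and the NF-kB motif in B2M, HLA-B, HLA-C, TAP1, TAPBP, ERAP1 and TAPBPL. By comparison, 3.57% of the 35116 promoters in the table hold the ISRE core, 11.3% the NF-kB motif and 0.775% the pair. The downstream start of TAPBPL held the NF-kB motif and no other of these, and the 300 bases at its upstream start, which lies within the CD27 gene, held none of these letters. A match is a string of letters and shows no binding. Only exact matches to these patterns were counted. A promoter without a match, such as that of HLA-B or HLA-C for the ISRE core, may still hold a variant form.

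Library totals were 14891932 to 17921808 counts at 24 h and 11805488 to 12448411 at 48 h. ANLN fell from 892 ± 16.96 to 104 ± 6.12 CPM (counts scaled to the library total, with edgeR's TMM factors; SD, n = 3) at 24 h and from 731 ± 8.09 to 80.8 ± 5.36 CPM at 48 h. All 9 squamous epithelial markers were expressed. Their summed level was 4597 to 4890 CPM in siNC and 3798 to 3946 CPM in siANLN at 24 h, and 5975 to 6175 against 3498 to 3568 CPM at 48 h, with 5 of 9 called lower at 24 h (4.86% of all genes tested were called lower) and 8 of 9 lower and 1 higher at 48 h (21.3% and 22.2% of all genes). Markers of leukocytes summed to at most 2.09 CPM in any 24 h library, and to 36.2 to 42.8 CPM in siNC and 65.0 to 66.1 CPM in siANLN at 48 h, nearly all of it from CD68, with PTPRC, which marks all leukocytes, at or near 0 at both times. Fibroblast markers summed to 5.38 to 7.21 CPM over the 24 h libraries, and at 48 h to 18.7 to 20.02 CPM in siNC and 9.52 to 11.8 CPM in siANLN. Endothelial markers did not exceed 2.10 CPM in any library. The part of these shifts in the class I results was not tested.

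At 24 h the control cells expressed the pathway over a wide range of levels. On the FPKM scale, which corrects for gene length, B2M was highest at 172 ± 5.01 (SD, n = 3), followed by HLA-E at 147 ± 3.23 and HLA-C at 50.1 ± 2.41. TAP1 stood at 17.4 ± 0.457, TAPBP at 15.6 ± 0.885 and TAP2 at 9.24 ± 0.360 FPKM. TAPBPL, at 7.61 ± 0.745, and ERAP1, at 6.61 ± 0.276, overlapped in their range over libraries, and HLA-B was last at 0.364 ± 0.0858 FPKM. All other neighbours in this order were separated by more than their range over the 3 libraries.

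In the 48 h table most of the class I genes of chromosome 6 were almost without counts, in control and knockdown cells alike. HLA-E had 7380, 7616 and 6870 counts in the siNC libraries at 24 h, but 2, 7 and 3 at 48 h. TAP1 had 0, 0 and 1 counts in siNC at 48 h and 0, 1 and 0 in siANLN. HLA-C had 8, 6 and 8 counts in siNC and 11, 3 and 10 in siANLN. TAPBP had 4, 4 and 9 against 3, 7 and 1, and HLA-B had 2, 0 and 1 against 5, 0 and 2. Each of these 5 genes therefore overlapped between the groups and lay too low to be tested at 48 h. As a ratio of control CPM at 24 h over 48 h, the gap was 2939-fold for TAP1, 1300-fold for HLA-E, 203-fold for HLA-C, 164-fold for TAPBP and 16.8-fold for TAP2, with counting error large where only a few counts remain.

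The gap followed chromosomal position. Among protein-coding genes with at least 5 CPM in the 24 h controls, 52 of 64 genes in the MHC region of chromosome 6 (28.5 to 33.5 Mb) were over 20-fold lower in the 48 h controls (81.2%), with a median ratio of 0.00444. Elsewhere in the genome 376 of 10024 genes were that much lower (3.75%), with a median ratio of 1.01. The 3 members on other chromosomes kept readable counts. Control B2M (chromosome 15) was 1038 CPM at 24 h and 242 CPM at 48 h, 4.28-fold lower. TAPBPL (chromosome 12) went from 24.1 to 40.3 CPM and ERAP1 (chromosome 5) from 52.1 to 175 CPM, by library size. The times come in separate tables with different gene lists. FPKM corrects for gene length, and control B2M had 172 FPKM at 24 h and 77.7 FPKM at 48 h. Beside its CPM above, this shows that the gene length used for B2M differed between the tables. Time and the making of the table thus cannot be told apart, and levels are not compared between times below.

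**Figure D1:**
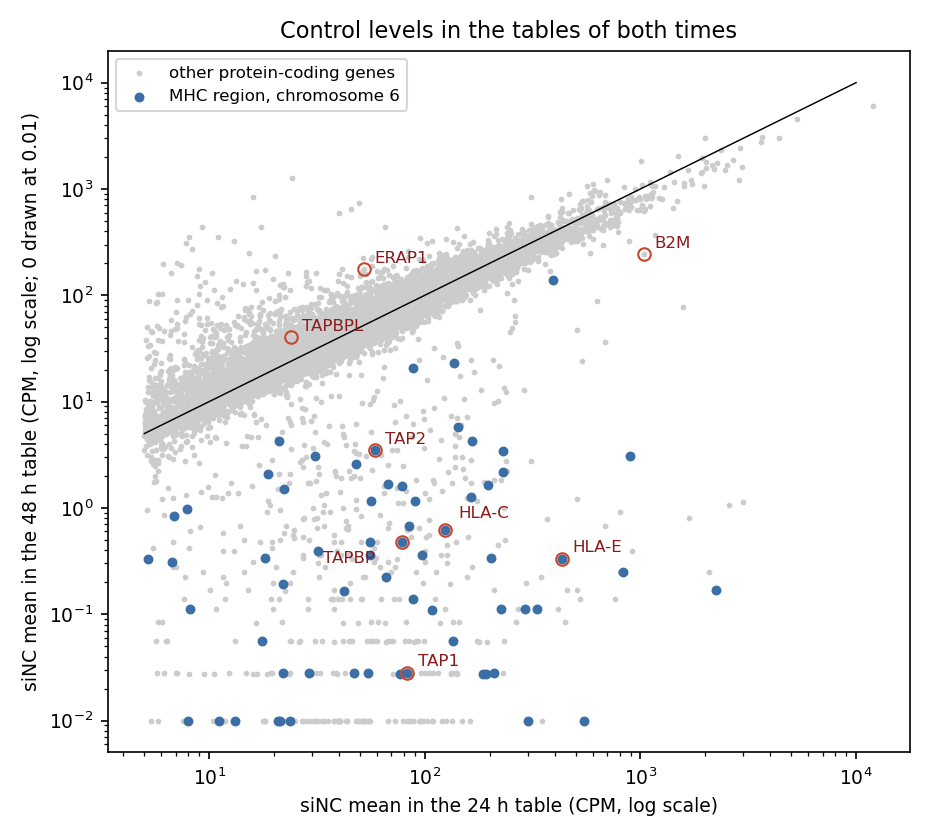
Mean CPM of the 3 siNC libraries at 24 h (x axis, log scale) against 48 h (y axis, log scale, 0 drawn at 0.01) for protein-coding genes with at least 5 CPM at 24 h; blue points lie in the MHC region of chromosome 6, red circles mark class I genes and the line marks equal levels. HLA-C, HLA-E, TAP1, TAP2 and TAPBP sit far below the line with most of the region, B2M moderately below it, and ERAP1 and TAPBPL above it.

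At 24 h, 3 of the 9 genes fell in siANLN cells and none rose. TAPBPL fell to 52.4% of control, and TAPBP and HLA-E fell slightly, to 88.3% and 93.0%. The remaining 6 were not called. Calls are at a Benjamini-Hochberg adjusted p under 0.05 in edgeR's quasi-likelihood test over all 14698 genes tested at that time, of which 10.8% were called and 4.86% were called lower. The siANLN libraries were all below the siNC libraries for the same 3 genes, against 12.5% of all genes. The median log2 fold change was -0.08 over the 9 genes and -0.01 over all genes tested.

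At 48 h, 3 of the 4 testable genes fell: TAPBPL to 30.6% of control, B2M to 83.3% and ERAP1 to 89.7%. Of the 16994 genes tested at that time 43.6% were called, and 21.3% were called lower. TAP2 was not called. All 4 genes had each siANLN library below each siNC library, as did 24.5% of all genes tested. The median log2 fold change was -0.29 over these 4 genes and -0.0027 over all genes tested. In these bulk samples, less RNA per cell and fewer cells that make it cannot be told apart.

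**Figure D2:**
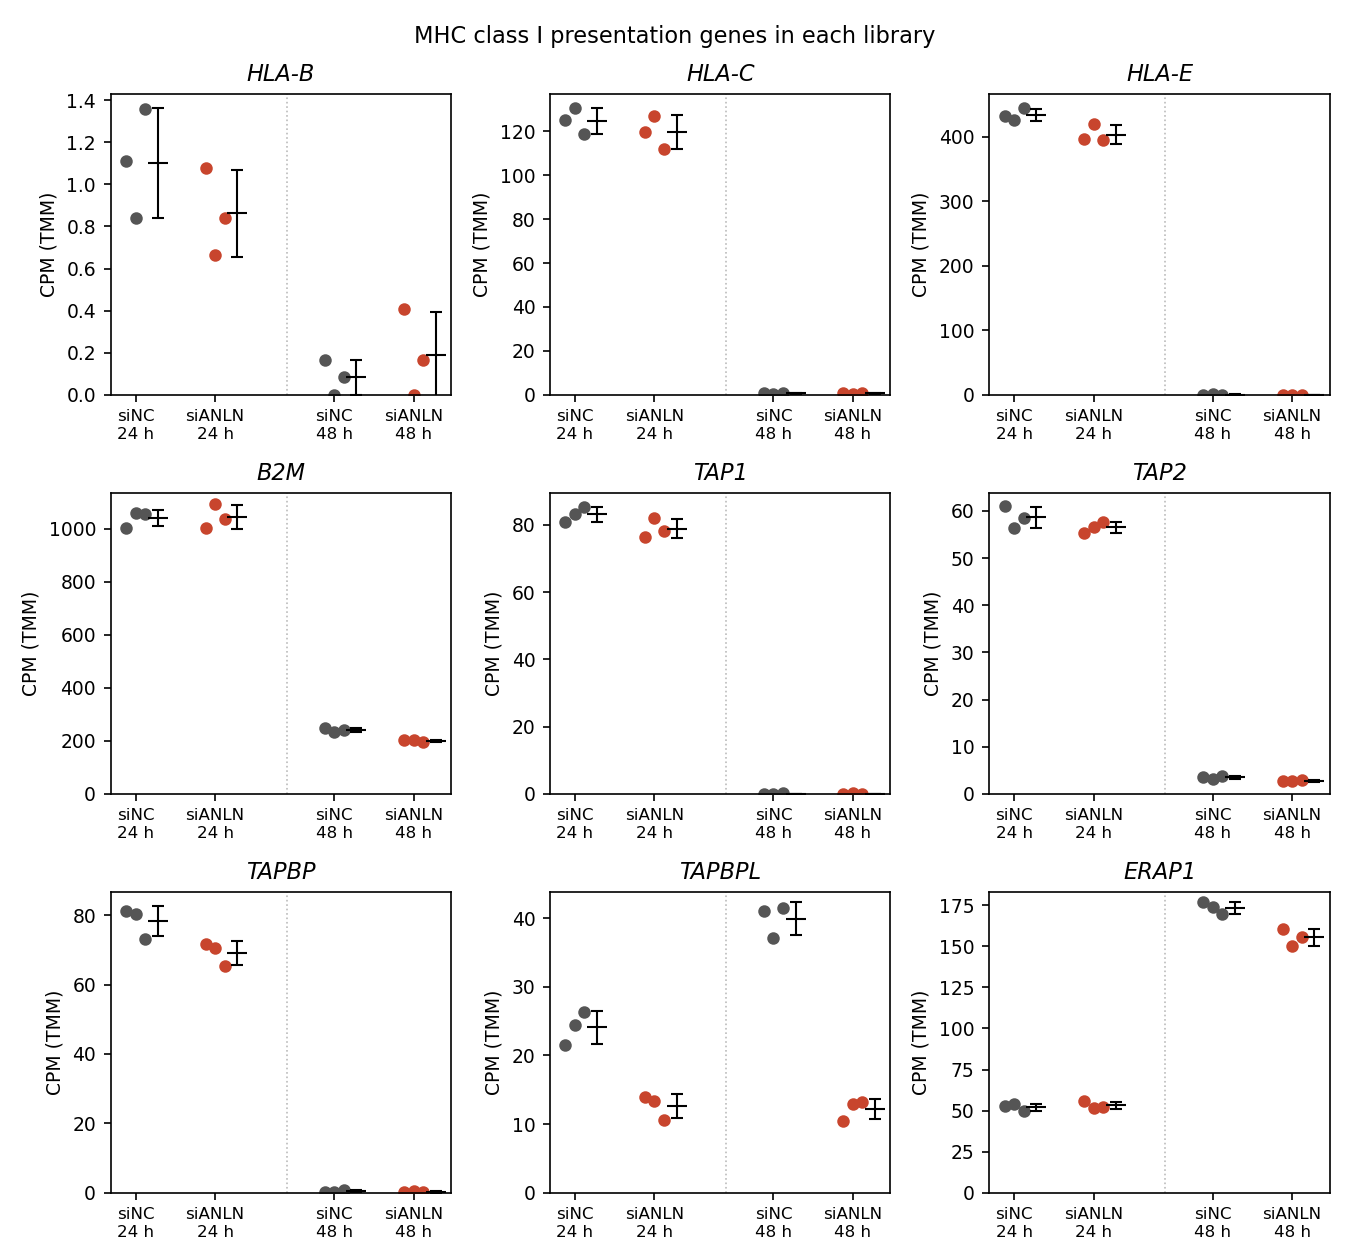
CPM (TMM-scaled, y axis, linear from 0) of each class I gene in each library; grey points are siNC and red points siANLN, and the bars give the mean and SD of 3 libraries, cut off at 0. The TAPBPL groups are well apart at both times, the B2M and ERAP1 groups are apart at 48 h but not at 24 h, and the HLA genes, TAP1 and TAPBP lie close to 0 at 48 h.

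The heavy chains could be read only at 24 h, where HLA-E fell slightly, HLA-C was not called and HLA-B had few counts. HLA-E, a heavy chain known for presenting leader peptides of other class I molecules to natural killer cell receptors, had 431, 425 and 445 CPM in siNC and 396, 420 and 394 CPM in siANLN. The siANLN libraries were all lower, but by a margin smaller than the spread within each group (SD 9.84 CPM in siNC and 14.6 CPM in siANLN). The log2 fold change was -0.10 (SE 0.04; edgeR Benjamini-Hochberg adjusted p = 0.038, and 0.0057 to 0.30 over 16 alternatives). The call was lost without siNC replicate 1 (edgeR adjusted p = 0.070), siNC replicate 3 (0.16), siANLN replicate 1 (0.18) or siANLN replicate 3 (0.19), and in limma on FPKM values. The HLA-B, HLA-C and HLA-E counts summed gave -0.10 with an edgeR adjusted p of 0.061.

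HLA-C, a classical heavy chain and the main class I ligand of killer-cell immunoglobulin-like receptors, had 125, 131 and 119 CPM in siNC and 120, 127 and 112 CPM in siANLN. The groups overlapped, and the log2 fold change was -0.06 (SE 0.05; edgeR adjusted p = 0.47), with an approximate 95% interval from -0.15 to 0.03. HLA-B, the other classical heavy chain, had only 19, 15 and 21 counts in siNC and 16, 11 and 13 in siANLN. At that depth its log2 fold change of -0.35 had an interval from -1.12 to 0.42 (edgeR adjusted p = 0.68), so a moderate change of HLA-B was not detectable. HLA-B and HLA-C share 35 exon bases in the annotation.

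B2M, the light chain that every class I heavy chain needs to reach the surface, fell at 48 h but not at 24 h. At 24 h it had 1004, 1059 and 1056 CPM in siNC and 1004, 1091 and 1036 CPM in siANLN. The groups overlapped, and the log2 fold change of 0.01 had an interval from -0.06 to 0.07 (edgeR adjusted p = 0.95). At 48 h it had 247, 233 and 241 CPM in siNC and 201, 203 and 196 CPM in siANLN. The groups were clearly apart, with a log2 fold change of -0.26 (SE 0.03; edgeR adjusted p = 4.9e-15). The fall was smaller than that of a typical called gene, whose median absolute log2 fold change at 48 h was 0.30.

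The transporter genes were not called at either time. TAP1, which encodes a chain of the peptide pump, had 80.8, 83.3 and 85.2 CPM in siNC and 76.2, 81.9 and 78.3 CPM in siANLN at 24 h. The groups overlapped by 1 library, with a log2 fold change of -0.08 (SE 0.05; edgeR adjusted p = 0.41) and an interval from -0.17 to 0.02. TAP2, its partner chain, had 61.0, 56.5 and 58.5 against 55.3, 56.5 and 57.8 CPM at 24 h, also overlapping, with a log2 fold change of -0.05 (SE 0.06; edgeR adjusted p = 0.67). At 48 h TAP2 had 42, 38 and 45 counts in siNC and 33, 31 and 36 in siANLN. All siANLN counts were the lower ones, but the interval of the log2 fold change, -0.73 to 0.09, took in 0 (estimate -0.32, SE 0.21; edgeR adjusted p = 0.22).

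Among the loading genes, TAPBP moved slightly and TAPBPL strongly. TAPBP, which encodes tapasin, had 81.2, 80.4 and 73.3 CPM in siNC and 71.7, 70.5 and 65.3 CPM in siANLN at 24 h. The highest siANLN library lay just under the lowest siNC library, and the log2 fold change was -0.18 (SE 0.05; edgeR adjusted p = 0.014, and 0.0031 to 0.32 over 15 alternatives). The call was lost without siNC replicate 1 (edgeR adjusted p = 0.10), siNC replicate 2 (0.084) or siANLN replicate 3 (0.15), and in limma on FPKM values.

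TAPBPL, the gene of the second peptide editor, fell most of the members tested at each time, 9 at 24 h and 4 at 48 h. At 24 h it had 369, 438 and 406 counts in siNC and 207, 220 and 164 in siANLN, which is 21.6, 24.5 and 26.3 CPM against 13.9, 13.3 and 10.6 CPM. No siANLN library came near the lowest control, and the log2 fold change was -0.93 (SE 0.10; edgeR adjusted p = 1.2e-11), the 58th lowest of the 14698 genes tested. At 48 h it had 496, 455 and 494 counts in siNC and 129, 152 and 161 in siANLN, or 41.0, 37.2 and 41.6 CPM against 10.5, 12.9 and 13.2 CPM. Again the groups lay far apart, with a log2 fold change of -1.71 (SE 0.08; edgeR adjusted p = 6.0e-64), the 43rd lowest of 16994. The call was kept at both times in all 15 alternatives, with log2 fold changes of -1.005 to -0.791 at 24 h and -1.77 to -1.52 at 48 h.

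TAPBPL (chr12:6451690-6466517, plus strand, GRCh38) shares exon bases with both neighbours. CD27, on the same strand, shares 29 of the 3188 exon bases of TAPBPL (0.910%) and had 0 to 3 counts in every library. VAMP1, a vesicle fusion protein gene on the opposite strand, shares 339 bases (10.6%). VAMP1 had 115, 111 and 109 counts in siNC and 85, 87 and 97 in siANLN at 24 h, and 117, 100 and 91 against 75, 78 and 77 at 48 h. Its log2 fold change was -0.21 (SE 0.16; edgeR adjusted p = 0.49) at 24 h and -0.42 (SE 0.14; edgeR adjusted p = 0.0067) at 48 h. The 48 h call was lost in DESeq2 (adjusted p = 0.061), in limma on unfiltered FPKM (adjusted p = 0.059) and without siNC replicate 1 (edgeR adjusted p = 0.089). VAMP1 had fewer counts than TAPBPL in every siNC library. Whether the counting used strand is not given in the sources used here.

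ERAP1, the aminopeptidase that trims peptides in the endoplasmic reticulum, fell slightly at 48 h. At 24 h it had 52.8, 53.9 and 49.8 CPM in siNC and 55.6, 51.7 and 52.4 CPM in siANLN, overlapping, with a log2 fold change of 0.03 (SE 0.06; edgeR adjusted p = 0.85). At 48 h it had 177, 174 and 169 CPM against 160, 150 and 156 CPM. The groups were apart, with a log2 fold change of -0.16 (SE 0.03; edgeR adjusted p = 3.1e-05). CAST, the calpain inhibitor gene on the opposite strand, shares 299 of the 7945 exon bases of ERAP1 (3.76%) and was more abundant, at 585 ± 2.81 CPM in siNC and 538 ± 9.54 CPM in siANLN at 48 h. Its log2 fold change there was -0.12 (SE 0.02; edgeR adjusted p = 3.3e-06), close to that of ERAP1. AC008906.1, also opposite, shares 252 bases and had 12 to 139 counts.

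**Figure D3:**
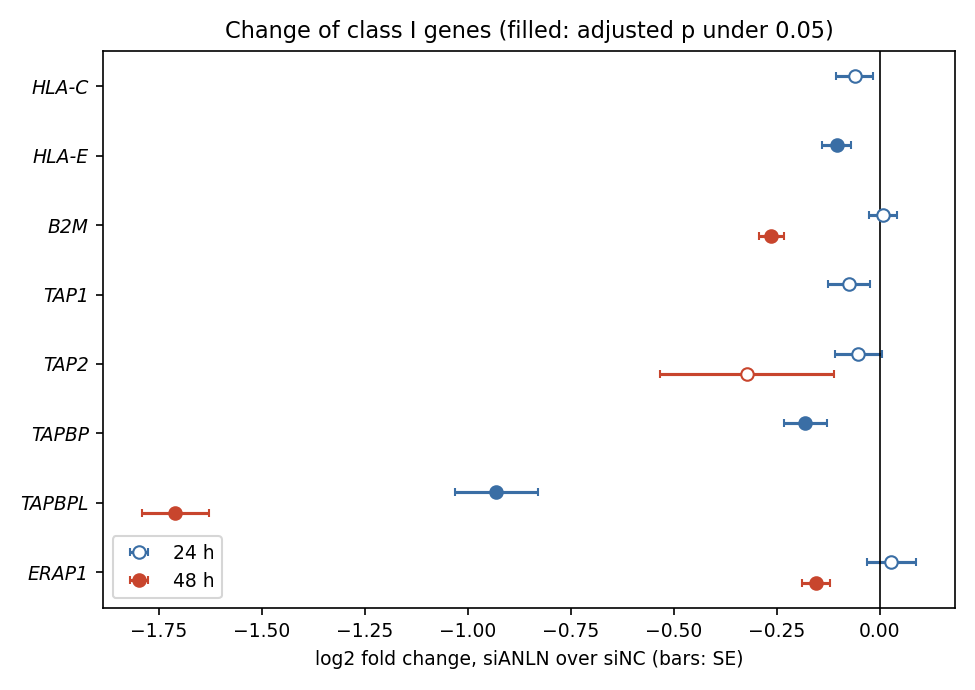
Log2 fold change of siANLN over siNC with its SE (x axis) for each class I gene tested, at 24 h (blue) and 48 h (red); filled points have an edgeR adjusted p under 0.05, and HLA-B is not drawn because of its wide error. TAPBPL stands at -0.93 and -1.71, while all other called changes lie between -0.26 and -0.10.

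The change from control differed between the times for TAPBPL and B2M. In a fit over the 12 libraries, which tested the difference of the log2 fold changes on 17625 genes and called 13.0% of them, TAPBPL was lower by a further -0.77 at 48 h (SE 0.14; edgeR adjusted p = 1.3e-05) and B2M by -0.26 (SE 0.05; edgeR adjusted p = 1.3e-05). ERAP1 gave -0.17 (SE 0.06; edgeR adjusted p = 0.067) and TAP2 -0.26 (SE 0.20; edgeR adjusted p = 0.49), neither of them called. The ERAP1 difference was called with library-size scaling (-0.22, edgeR adjusted p = 0.013) and without siNC 24 h replicate 2 (-0.20, edgeR adjusted p = 0.043). HLA-B, HLA-C, HLA-E, TAP1 and TAPBP had too few counts at 48 h for a readable difference. These differences compare changes across separately made tables, in which the gene length used for B2M differed.

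The rest of the pathway was followed in 8 lists of 68 genes. At 24 h, 59 of the 68 were tested, 4 rose and 5 fell, beside 5.93% and 4.86% of all genes tested. At 48 h, 51 were tested, 13 rose and 17 fell, beside 22.2% and 21.3% of all genes. The median log2 fold change over the tested genes was -0.02 at 24 h and -0.05 at 48 h. Leaving out siNC replicate 3 or siANLN replicate 3 left 5 calls at 24 h in place of 9.

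The proteasome genes called were immunoproteasome subunits, 1 at each time. The immunoproteasome, the interferon-induced form, and its activator were followed in 6 genes. Of these, 1 of 6 tested fell at 24 h and 1 of 2 at 48 h, and none rose. Of all genes tested, 4.86% were called lower at 24 h and 21.3% at 48 h. At 48 h only PSMB10 and PSME3 were tested. PSMB8 and PSMB9 had no row at 48 h. PSME1, on chromosome 14, had 1730 to 2275 counts at 24 h but 0 in every 48 h library. PSME2 had 3 to 9 counts at 48 h. PSMB10, an immunoproteasome catalytic subunit, fell at 48 h from 51.7 ± 3.39 to 28.9 ± 2.02 CPM (SD, n = 3; log2 -0.84, SE 0.06; edgeR adjusted p = 4.7e-32). At 24 h it was at 11.99 ± 1.24 and 10.2 ± 1.23 CPM, and not called (edgeR adjusted p = 0.25). PSMB9, another such subunit, whose gene lies beside TAP1 in the MHC region, fell at 24 h from 32.5 ± 3.32 to 26.7 ± 1.79 CPM (edgeR adjusted p = 0.0096). That call was lost without siNC replicate 3 (edgeR adjusted p = 0.13) or siANLN replicate 3 (0.082). None of the standard catalytic subunits PSMB5, PSMB6 and PSMB7 was called at either time, with log2 fold changes between -0.05 and 0.07.

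Of the 8 other peptidases followed, 3 rose at 24 h, and 4 rose and 2 fell at 48 h. Over all genes tested, 5.93% were called higher at 24 h, and 22.2% higher and 21.3% lower at 48 h. ERAP2, the partner of ERAP1 in peptide trimming, fell at 48 h from 114 ± 3.38 to 79.6 ± 2.32 CPM (log2 -0.52, SE 0.04; edgeR adjusted p = 8.3e-29). NPEPPS, a cytosolic aminopeptidase, fell by 0.16 on the log2 scale. THOP1, a cytosolic oligopeptidase that can destroy presented peptides, rose at both times, from 134 ± 8.76 to 156 ± 4.44 CPM at 24 h and from 108 ± 6.84 to 130 ± 5.92 CPM at 48 h. NRDC, which encodes nardilysin, rose from 191 ± 1.05 to 242 ± 2.94 CPM at 48 h. At 24 h its log2 fold change was 0.13 (edgeR adjusted p = 0.020), a call lost without siNC replicate 2 (0.096), siANLN replicate 1 (0.12) or siANLN replicate 3 (0.096).

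Chaperones of class I folding went both ways. CALR, which encodes the calreticulin of the loading complex, rose at 48 h from 345 ± 0.345 to 464 ± 2.47 CPM (log2 0.43, SE 0.03; edgeR adjusted p = 2.1e-45), and PDIA3, its oxidoreductase partner, from 339 ± 1.49 to 369 ± 0.815 CPM. CANX, which encodes the membrane-bound relative calnexin, fell at 24 h from 1576 ± 24.6 to 1175 ± 24.9 CPM (log2 -0.42, SE 0.03; edgeR adjusted p = 8.8e-18). At 48 h CANX fell from 76.5 ± 0.619 to 47.9 ± 3.52 CPM. Of these 4 genes 1 fell at each time, and 3 rose at 48 h. The shares over all genes were 4.86% lower at 24 h, and 21.3% lower and 22.2% higher at 48 h.

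The list of transcription and interferon signalling holds 20 genes, among them factors that act on class I promoters, interferon receptors, kinases and feedback inhibitors. All 20 were tested at 24 h and 2 fell, beside 4.86% called lower over all genes. Of 19 tested at 48 h, 2 rose, 8 fell and 9 were not called, beside 22.2% higher and 21.3% lower over all genes. IRF1, the interferon-induced factor that binds ISRE sequences such as those printed above, fell from 83.9 ± 3.17 to 67.2 ± 1.57 CPM at 24 h (log2 -0.32, SE 0.05; edgeR adjusted p = 1.4e-06) and from 228 ± 3.38 to 130 ± 0.802 CPM at 48 h (log2 -0.82, SE 0.03; edgeR adjusted p = 1.9e-77). NLRC5, the class I transactivator, was at 75.3 ± 6.08 and 77.5 ± 3.16 CPM at 24 h, overlapping between the groups, and fell at 48 h from 132 ± 2.41 to 97.1 ± 1.77 CPM (log2 -0.44, SE 0.04; edgeR adjusted p = 1.8e-24). Subunits of NF-kB went the other way at 48 h, with NFKB1 rising from 64.8 ± 1.438 to 79.0 ± 2.69 CPM and RELA from 120 ± 4.93 to 133 ± 4.48 CPM. The change differed between the times for IRF1 (-0.48, SE 0.06; edgeR adjusted p = 3.2e-10) and for NLRC5 (-0.47, SE 0.07; edgeR adjusted p = 4.0e-08). Whether these changes bear on the class I genes was not tested.

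Lists of molecules that act beside classical class I, or on its surface level, were followed in the same way. Of 14 class I-like and natural killer ligand genes, 1 of 9 tested fell at 24 h and 3 of 7 at 48 h, and none rose. The gene called at 24 h had only 12 to 39 counts per library (edgeR adjusted p = 0.045) and no row at 48 h. Over all genes tested, 4.86% were called lower at 24 h and 21.3% at 48 h. MR1, which presents vitamin B metabolites to MAIT cells, fell at 48 h from 19.9 ± 0.367 to 13.6 ± 0.603 CPM, and RAET1L, a ligand of the NKG2D receptor, from 7.39 ± 0.875 to 5.30 ± 0.0576 CPM. Of 6 genes of class I surface turnover, 1 rose at 24 h, and 3 rose and 1 fell at 48 h. The shares over all genes were 5.93% higher at 24 h, and 22.2% higher and 21.3% lower at 48 h. MARCH4, a membrane ubiquitin ligase that removes class I from the surface, rose at 48 h from 14.02 ± 0.369 to 21.2 ± 0.883 CPM (log2 0.59, SE 0.09; edgeR adjusted p = 1.6e-09). WWP2, a ubiquitin ligase, rose from 74.9 ± 2.09 to 86.2 ± 5.39 CPM, and SUSD6, which works with it, gave -0.13 (edgeR adjusted p = 0.046), a call lost without any of 5 libraries (edgeR adjusted p = 0.057 to 0.31). These were siNC replicates 1, 2 and 3 and siANLN replicates 1 and 3.

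The MHC class II genes were close to silent at 24 h, where the 7 listed summed to 1.62 to 3.09 CPM per library. Of the 7 listed, 3 were tested at 24 h and none was called, and 2 were tested at 48 h. CIITA, the class II transactivator, rose at 48 h from 16.1 ± 1.42 to 20.9 ± 0.992 CPM (edgeR adjusted p = 1.4e-04). CD74, the invariant chain, was at 1.16 ± 0.0904 and 0.555 ± 0.274 CPM (edgeR adjusted p = 0.027), a call lost without siNC replicate 1 (0.076), siNC replicate 3 (0.063) or siANLN replicate 1 (0.21). HLA-DMA had 0.563 ± 0.230 and 0.682 ± 0.152 CPM at 24 h and was not called.

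**Figure D4:**
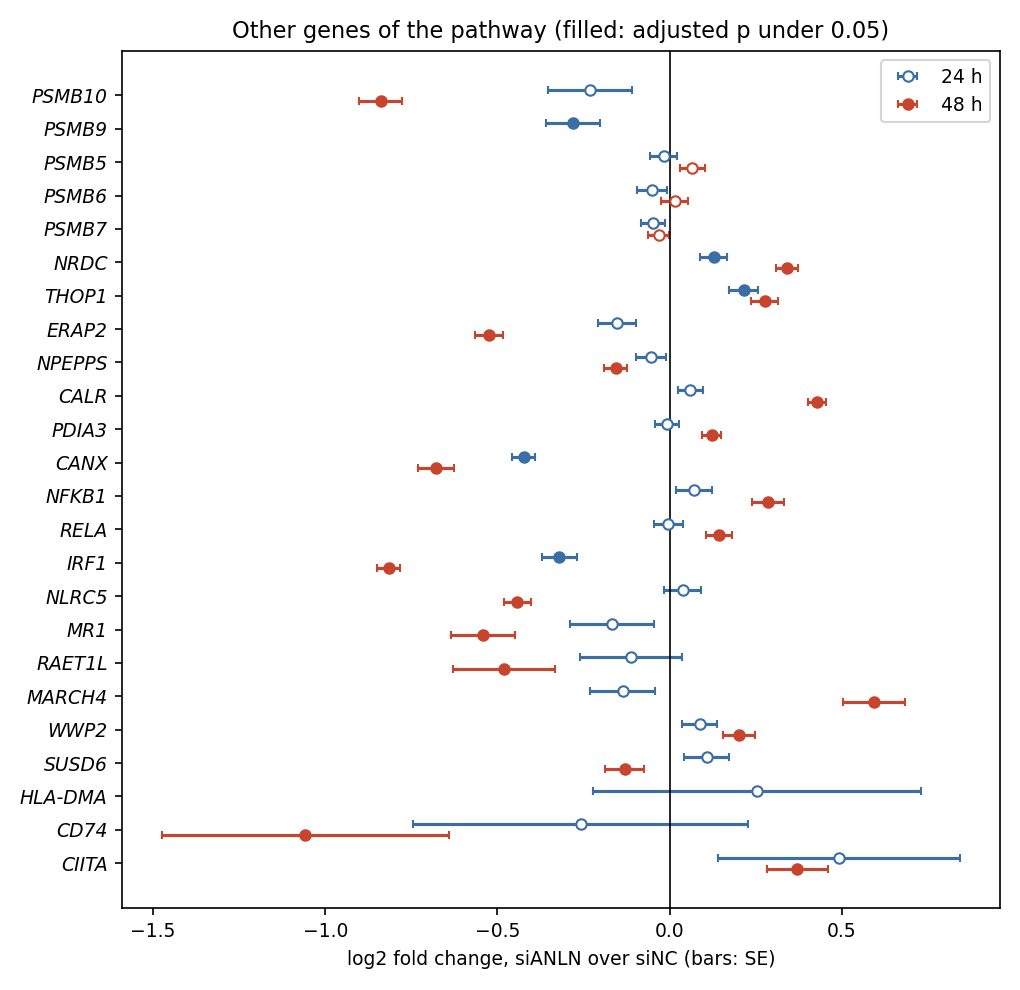
Log2 fold change of siANLN over siNC with its SE (x axis) for named genes of the wider pathway, in the order proteasome, peptidases, chaperones, regulators, class I-like genes, surface turnover and class II, at 24 h (blue) and 48 h (red); filled points have an edgeR adjusted p under 0.05. IRF1, NLRC5, PSMB10 and ERAP2 lie to the left at 48 h, and CALR, NRDC, NFKB1 and MARCH4 to the right.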

How the data were processed

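Poly(A) RNA of 12 libraries was sequenced as paired reads, per the labels' protocols. The submitters' processing notes name cutadapt 1.18, STAR 2.7.3a, featureCounts, DESeq2 1.44.0 and the GRCh38 build. The authors deposited, in separate tables for 24 h and 48 h, raw counts of reads for each gene, and FPKM (counts corrected for gene length and library total). The sources used here name neither the strand setting nor the annotation. Repeated lines of the 48 h table (38561 lines for 38318 gene IDs) held identical values and were kept once. Genes were placed by GENCODE 29, which holds 35484 of the 48 h IDs.

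Each time was fitted on its own 6 libraries in edgeR 4.0.16 (R 4.3.3) with filterByExpr, TMM scaling and the robust quasi-likelihood test, with p-values adjusted by Benjamini-Hochberg over all genes tested and a threshold of 0.05. The difference between the times was the interaction in a fit of all 12 libraries, read only for genes with at least 10 counts in every library. The SE was taken from the F statistic, and CPM are TMM-scaled unless given by library size. The scripts were tested on simulated counts. Alternatives were DESeq2 1.42.0, limma 3.58.1 on log2(FPKM + 0.5) or log2(FPKM + 1) of the deposited FPKM, other scalings and no filter. Each replicate left out, a replicate block and a single fit over the 12 libraries were also run. The difference was refitted only in edgeR, with other scalings, a replicate block or each replicate left out. Replicates are labelled biological replicates. The labels do not state whether same-numbered libraries were handled as pairs, and the main fits treated them as unpaired. Deviations of same-numbered libraries from their group means correlated at -0.05 to 0.06. No shared effect was seen, but this cannot show that the samples were unpaired.

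The members and lists were chosen with earlier results of these data known. Genes named are the members, ANLN, overlapping neighbours, the 5 genes most alike in pattern and, per list, all genes if at most 3 were tested or otherwise the 2 with the smallest adjusted p in each direction. Exceptions to that rule are marker genes named beside summed levels.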

Additional observations from a re-analysis of the deposited data

Results flagged for a closer look

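The change of TAPBPL from control differed between the times by -0.77 on the log2 scale (SE 0.14; edgeR adjusted p = 1.3e-05), with all 3 siANLN libraries below all 3 siNC libraries at both times. The change of B2M differed by -0.26 (SE 0.05; edgeR adjusted p = 1.3e-05), with overlapping groups at 24 h and all 3 siANLN libraries lower at 48 h. Both stood out because the interaction of treatment and time passed the threshold. The tables of the 2 times were made separately and with different gene lengths for B2M. Control B2M was 4.28-fold lower at 48 h, so time and table cannot be told apart.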

How the results depend on the processing

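The TAPBPL calls at both times and the B2M and ERAP1 calls at 48 h held in all 15 alternatives each. The B2M and TAPBPL differences between the times held in another 15, all of them edgeR fits. These were other scalings, a replicate block and each replicate left out. The DESeq2 test, limma and the unfiltered fit were not run for the difference. No result reversed. The HLA-E call at 24 h was lost in 8 of 16 alternatives and the TAPBP call in 6 of 15, and the report names the libraries. limma on FPKM called 1 of the 9 genes at 24 h in each of its settings. It called 766 genes at 24 h with a pseudocount of 0.5, 759 with 1 and 386 with no filter, in place of 1585, and 3, 3 and 2 of the wider pathway in place of 9. At 48 h with no filter it called 4269 genes in place of 7402, and 15 of the wider pathway in place of 30. The cause was not tested. With 1 library left out, calls over all genes ranged from 1285 to 1421 at 24 h, from 6631 to 6809 at 48 h and from 1884 to 2310 for the difference. Calls among the 9 genes then ranged from 1 to 3 at 24 h, 3 to 3 at 48 h and 2 to 3 for the difference, and in the wider pathway from 5 to 10 and from 25 to 28. A replicate block gave 1772 genes at 24 h, 7355 at 48 h and 2392 for the difference, and changed no call among the 9 genes. A tally under all alternatives covered the wider pathway genes called at either time, with ANLN, VAMP1 and CAST. It took in the changes at each time and the differences between the times. Of these values, 1392 kept their side of the threshold, 148 lost a call and 8 gained a call. Depth limits HLA-B at 24 h and HLA-B, HLA-C, HLA-E, TAP1, TAP2 and TAPBP at 48 h.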

Other observations

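Among 9904 genes, those whose pattern over the 12 libraries was most like the mean of B2M, TAP2, TAPBPL and ERAP1 were AJUBA, FSTL3, VCL, HR and AHNAK2. Each time was centred on its own siNC libraries, so the likeness rests largely on the shared contrast of knockdown and control. TAPBPL weighed most in this mean, with log2 fold changes of -0.93 at 24 h and -1.71 at 48 h. Those of B2M were 0.01 and -0.26, of TAP2 -0.05 and -0.32, and of ERAP1 0.03 and -0.16. The likeness is thus mostly to TAPBPL and not to the class I genes together. Pearson's r was 0.996 for AJUBA and 0.990 for AHNAK2, given as a description. AJUBA, which encodes a LIM-domain protein of cell junctions, had log2 fold changes of -0.16 at 24 h and -0.46 at 48 h, and VCL, which encodes the focal adhesion protein vinculin, had -0.33 and -0.80. FSTL3, a secreted inhibitor of activin, had -0.28 and -0.72, and HR, a nuclear corepressor, had -0.40 and -1.06. AHNAK2, a large scaffold protein, had -0.81 and -1.99, close to TAPBPL at -0.93 and -1.71.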
